A study of Mus musculus with 18 samples.

Results

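Cytosolic ribosomal protein genes were examined in cartilage RNA of mouse knees after anterior cruciate ligament (ACL) rupture. The members were the protein-coding genes of the mouse annotation whose symbol is Rpl or Rps followed by a digit, without the Rps6k kinases, together with Rplp0, Rplp1, Rplp2 and Rpsa. They numbered 92 of 49184 genes, of which 21918 are protein-coding, and comprised 31 genes of proteins of the small (40S) subunit, 46 of the large (60S) subunit, 7 paralogs, 6 genes whose symbol names a pseudogene, and Rps19bp1 and Rpl7l1, whose symbols name no subunit protein. The symbol rule does not catch Fau and Rack1, which also encode ribosome components and are given apart. The rule used no expression value. Of the 92 members, 87 passed the filter on low counts and were tested, and Rpl10l, Rpl36-ps4, Rpl36a-ps1, Rpl9-ps1 and Rpl9-ps6 were not, with at most 11 estimated counts in any library.

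All mice were male C57Bl/6J, aged 12 weeks, and the libraries were made from ribosome-depleted total RNA of the femoral condyle cartilage. There were 6 libraries of naïve mice, labelled with day 7, which had no rupture. At day 1 and at day 7 after rupture there were 3 libraries of the injured right knee and 3 of the uninjured contralateral left knee. The ligament was broken by 1 mechanical load under isoflurane, and buprenorphine was given, so that contralateral knees shared the anaesthetic and the analgesic of the injured mice. Each library pooled the cartilage of several mice. The study's methods give 2 mice a library at day 1 and 4 at day 7, with naïve libraries that share mice, whereas the design text gives 4 for each. The labels do not say which knees share mice, so that p-values measure the spread between these pools. The estimated counts totalled between 16074762 and 41794005 a library, with a median of 25465706.

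Ribosomal proteins are assembled with ribosomal RNA into the subunits that read messenger RNA and join amino acids. Their mRNAs are among the most abundant of every cell, and many begin with a cytosine followed by a run of pyrimidines, the 5′ terminal oligopyrimidine (TOP) motif, through which mTOR signalling and the binding protein Larp1 govern translation. The level of such an mRNA is therefore background to its translation and does not measure it.

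The starts of some members called in a comparison, and of Rps6, are shown because this motif is what ribosomal protein mRNAs are known for. Each line gives 12 bases before the annotated first base and 18 from it on, on the strand of the gene, from the RefSeq promoter table of GRCm38.p6, with capitals for a run of at least 7 pyrimidines within 10 bases of that first base. In order, they lie at chr2:180257367-180257396 (+), chr11:114668568-114668597 (+), chr2:39005114-39005143 (-), chr7:141447639-141447668 (+), chr4:86857350-86857379 (-), chr17:28328459-28328488 (+) and chr10:128549151-128549180 (-).
Rps21: cgaggacccgCCCTCCTgcccaatagtgct
Rpl38: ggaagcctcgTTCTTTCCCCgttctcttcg
Rpl35: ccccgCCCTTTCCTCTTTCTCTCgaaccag
Rplp2: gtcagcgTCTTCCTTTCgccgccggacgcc
Rps6: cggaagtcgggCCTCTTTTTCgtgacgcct
Rpl10a: gcgCCCCCCCagcggccgcaaactgcagcg
Rpl41: acgggccggctcggaagtgacgacaccgag
The first 5 have a C at the annotated first base followed by at least 4 pyrimidines (C or T), Rpl10a has its run before the first base, and Rpl41 has none. Rpl7l1, which was called too, has no run, and neither has the second annotated start of Rps21 or of Rpl10a. Over the 66 members found in the table, with 78 annotated starts, 17.9% of starts had the C with 4 pyrimidines and 44.9% had a run nearby. Among all 32851 starts listed there, 2.51% and 20.2% did, and of 75 starts of mitochondrial ribosomal protein genes none and 16%. Only the strand of the gene was searched, the C with 4 pyrimidines often lies inside a run, and an annotated start can be some bases off the start that a cell uses.

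On the TPM scale, which corrects each transcript's counts for its length and for the total of the library, the members lay at a median of up to 531 over the 18 libraries. Among the highest were Rplp1 at 531, Rpl41 at 477, Rps27 at 412 and Rplp0 at 406. Rplp1 and Rplp0 encode proteins of the stalk that recruits elongation factors, Rpl41 encodes a protein of the 60S subunit, and Rps27 encodes a protein of the 40S subunit. The 5 lowest were the 5 members that were not tested, at a median of at most 0.0598, and next came the paralogs Rpl39l at 0.650 and Rps27rt at 1.39. The members' summed share of a library's counts lay between 1.40% and 2.003%. All 19 chondrocyte markers were listed above 0, a bar too low to settle how much of the pools was cartilage. Prg4, the lubricin of the joint surface, stood at a median of 371 TPM, Col2a1, the main cartilage collagen, at 358, and Acan, the main cartilage proteoglycan, at 29.05. Markers of other tissues were far from absent, with Hbb-bs of red cells at 15237 TPM, S100a8 of neutrophils at 4234, Col1a1 of bone and fibrous tissue at 1432 and Acta1 of muscle at 475. In such bulk samples, fewer cells of a type and less RNA per cell cannot be told apart.

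Day 7 contralateral replicate 1 stood apart from the other 17 libraries before any comparison. For each library, each member's log2 CPM (counts brought to a common library size, with TMM factors over the 18 libraries) was set against the mean of the 6 naïve libraries. In that library the deviations of the 87 members had an SD of 0.986, against 0.114 to 0.275 in the others, and 29 members lay more than 2-fold off the naïve mean, 14 above and 15 below, against at most 2 elsewhere. Rps26 was lowest at -3.03 and Rps9 highest at 1.999 on the log2 scale. Rps9 was at 1332 CPM there and between 228 and 433 in all others, and Rps26 at 16.4 CPM there and between 101 and 165 in all others. Among 4143 other coding genes of like abundance, 5.62% were more than 2-fold off in that library, against up to 6.28% in day 7 injured replicate 3, and the SD of those genes was 0.528 there and up to 0.555 elsewhere. Their interquartile range was the widest there too, at 0.621 against at most 0.514 elsewhere, and that of the members was 1.23 against at most 0.288. The correlation of the members' deviations there with their GC content was 0.04 and with their log2 transcript length 0.01, over 87 genes of 1 library. This library also had the lowest share of counts from the mitochondrial genome (0.914%, others 3.65% to 8.68%), the lowest TMM factor (0.696, others 0.829 to 1.16) and the highest summed erythroid markers (66259 CPM, others at most 42651). Its summed chondrocyte markers were the highest as well (15771 CPM, others at most 10881), and its bone and fibroblast markers, at 53701 and 31917 CPM, lay above the at most 23719 and 15581 CPM of the other day 7 contralateral libraries. The part of these in the scatter was not tested.

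**Figure D1:**
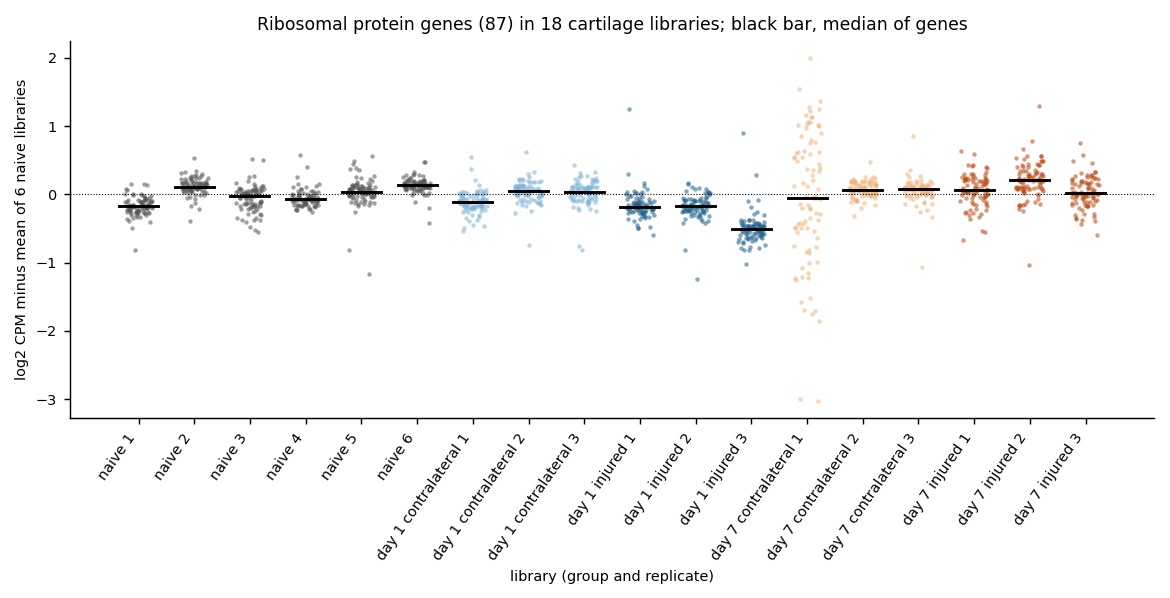
Each point is 1 of 87 ribosomal protein genes, drawn on the vertical axis as log2 CPM minus the mean of the 6 naïve libraries, for each of 18 libraries on the horizontal axis, and black bars are medians over the genes. Day 7 contralateral replicate 1 is spread widest (SD 0.986), and day 1 injured replicate 3 has the lowest median (-0.51).

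At day 1 the question was whether injury moved the members within a day. Their level was lower in the injured libraries in TMM-scaled counts, but no member passed edgeR's test, and the direction turned in TPM. Against naïve mice 84 of 87 members had a log2 fold change below 0, with a median of -0.29 against 0.00 over all genes tested. In edgeR's test none of the 87 reached an FDR of 0.05, and neither did any of the 21129 genes (0%). An unadjusted p under 0.05 was reached by 55 members, all lower, which is 63.2% of members, where 2.70% of all genes were lower at that p. DESeq2 called 14 members lower (16.1%), where it called 37 genes in all (0.175%), and limma-voom called none. The lowest FDR of a member in edgeR was 0.165, for Rpl10-ps3.

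The members' median deviation from the naïve mean was -0.18 in day 1 injured replicate 1, -0.18 in replicate 2 and -0.51 in replicate 3. The naïve libraries ran from -0.18 to 0.13, so that replicates 1 and 2 lay at the edge of the naïve range and replicate 3 below it. Without replicate 3 the median log2 fold change against naïve was -0.18. In the day 1 contralateral libraries the median deviations were -0.11, 0.05 and 0.04, inside the naïve range. In edgeR neither subunit had a called gene, whereas the 14 that DESeq2 called lower were 6 genes of 40S proteins, 7 of 60S proteins and Rpl10-ps3. The median log2 fold change in edgeR was -0.30 over the 31 genes of 40S proteins, all of them below 0, and -0.28 over the 46 of 60S proteins, 45 of them below 0.

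On the TPM scale the same day 1 injured libraries stood higher, with a median deviation between 0.16 and 0.30 and a naïve range of -0.17 to 0.18. The day 1 contralateral libraries stood as high on that scale, at 0.40, 0.26 and 0.17, and overlapped the injured ones. TPM divides by all transcripts, non-coding ones included. Set against the TPM of the other protein-coding genes alone, the members held 5.66%, 6.61% and 6.83% in the day 1 injured libraries, at least 6.69% in the contralateral ones (median 7.13%), and between 6.66% and 8.02% in naïve ones. Of the injured libraries, the one at 6.83% overlapped these values. The members' share of all counts was 1.62%, 1.79% and 1.405% in the injured libraries and 1.62% to 2.003% in naïve ones, so that only replicate 3 lay below. In the contralateral libraries it was 1.81%, 1.91% and 1.88%. The TMM factors were 1.08, 1.16 and 1.16 in the injured libraries and 0.962 to 1.12 in naïve ones, and a higher factor lowers a library's CPM.

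Against the contralateral knees of the same day, 83 of 87 members were below 0 in TMM-scaled counts, with a median of -0.28, which was -0.17 without day 1 injured replicate 3. None passed edgeR's test (0% of 21129 genes), with 44 members (50.6%) at an unadjusted p under 0.05, all lower, where 3.24% of all genes were lower at that p, and neither DESeq2 nor limma-voom called any. For 45 members (51.7%) the 3 injured libraries all lay below the 3 contralateral ones, against 6.06% of all genes. Against naïve libraries 18 members (20.7%) lay below without overlap, against 1.01% of all genes. The injured libraries serve in both comparisons. Members share libraries and move together, so that these shares count genes and are not independent observations.

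Rps14, a 40S protein, had the lowest log2 fold change at day 1 against naïve. Its level was 218, 213 and 138 CPM in the injured libraries, between 226 and 320 CPM in naïve libraries with a mean of 281, and 250, 257 and 237 CPM in the contralateral libraries. The injured libraries were below all the others of day 1 and naïve, with a log2 fold change of -0.57 ± 0.14 (SE) against naïve and an edgeR FDR of 0.987. Rps20, also of the 40S subunit, was at 105, 104 and 88.9 CPM in the injured libraries, below the 115 to 155 CPM of naïve ones, with a log2 fold change of -0.48 ± 0.10 and an edgeR FDR of 0.9002. In TPM it was at 115, 126 and 136, within the naïve range of 108 to 159. Transcripts not annotated as protein-coding took 63.9%, 64.0% and 65.3% of its counts in the injured libraries and 67.0% to 73.0% in naïve ones. The part of that share in its fall was not tested. DESeq2 gave both an adjusted p under its threshold (0.0180 for Rps14, 0.00403 for Rps20). Rpl10-ps3, named as a pseudogene of Rpl10 but annotated as protein-coding, was at 185, 209 and 174 CPM in the injured libraries and between 248 and 298 CPM in naïve ones. Its contralateral libraries were low as well, at 199, 235 and 235 CPM. Rpl10 itself was at 99.8, 97.3 and 116 CPM in the injured libraries, within the naïve range of 73.7 to 124 CPM.

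At day 7 a few members were modestly higher in injured than in naïve cartilage in TMM-scaled counts. The TMM factors over the 18 libraries were 0.838, 0.829 and 0.852 in the day 7 injured libraries and 0.962 to 1.12 in naïve ones. A lower factor raises a library's CPM, and its part in the rise was not tested. In edgeR's test 8 of 87 members (9.20%) rose and none fell, where 18.7% of all genes rose and 11% fell. The members' share called was thus below that of all genes. None of the called members changed 1.5-fold or more, whereas 16.6% of all genes passed both thresholds. Of the members that were not called, 3 had a fitted change of that size, the paralogs Rpl39l, Rps27rt and Rpl3l. The median log2 fold change was 0.12 over the members and -0.04 over all genes, with 67 of 87 members above 0, and without day 7 injured replicate 2 the members' median was 0.06.

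Rps21, a 40S protein, rose the most among the members called. It was at 88.5, 86.4 and 68.1 CPM in the day 7 injured libraries and between 45.0 and 69.2 CPM in naïve libraries with a mean of 59.0, for a log2 fold change of 0.47 ± 0.14 (SE) and an edgeR FDR of 0.0173. Replicate 3 overlapped the naïve range. Rpl41, a very short and basic 60S protein, was at 349, 362 and 315 CPM against 218 to 286 CPM in naïve libraries, with no overlap in CPM. In TPM it was at 404, 526 and 527 against 359 to 485, so that replicate 1 overlapped. Its log2 fold change was 0.42 ± 0.12 and its FDR 0.0176. Rpl38, a 60S protein known for its role in the translation of Hox mRNAs in the mouse embryo, was at 96.3, 97.8 and 79.4 CPM against 63.8 to 81.4 CPM, with replicate 3 inside the naïve range. Its log2 fold change was 0.35 ± 0.11 and its FDR 0.0231. Rpl10a, the 60S protein of the L1 stalk beside the site where spent tRNA leaves, was at 157, 213 and 207 CPM against 126 to 173 CPM, a log2 fold change of 0.38 ± 0.13 with an FDR of 0.0336. In TPM, Rps21 was at 140, 162 and 155 against 113 to 165 in naïve libraries, and Rpl38 at 171, 206 and 204 against 172 to 212. Rpl10a was at 96.4, 155 and 165 TPM against 105 to 160.

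The 60S protein genes Rpl17 and Rpl35 rose by a log2 fold change of 0.32 and 0.31, with FDRs of 0.0441 and 0.0495 in edgeR. Rpl17 was at 255, 313 and 261 CPM against 206 to 265 CPM in naïve libraries, and Rpl35 at 122, 157 and 122 CPM against 95.1 to 137 CPM. Both overlapped the naïve range. Leaving out 1 library at a time, the call of Rpl17 was lost in 7 of 15 fits and that of Rpl35 in 12. For the other called members 1 to 5 fits lost the call. Rpl7l1, a relative of Rpl7 with a role in ribosome assembly, rose by 0.30 at an FDR of 0.0148, the lowest of any member in this comparison, from 45.6 to 55.4 CPM in naïve libraries to 62.3, 63.4 and 62.8 CPM. Rpl10-ps3 rose by 0.26 at an FDR of 0.0299, at 343, 339 and 314 CPM. Without overlap in CPM, 8 of the 87 members (again 9.20%, but not the same list) lay above every naïve library at day 7, against 17.3% of all genes. Among them were Rpl10-ps3, Rpl18, Rpl19, Rpl41, Rpl7l1, Rps14 and Rps15. On the other side, Rps23, Rplp2 and Rpl13 had log2 fold changes of -0.31, -0.24 and -0.23 and were not called, but with counts of protein-coding transcripts only all of them were lower (-0.53, -0.37 and -0.35, with FDRs of 0.0308, 0.0252 and 0.0272 in edgeR). That fit also called Rps26, with the largest fall (-0.64, FDR 0.0114), Rpl36 (-0.28, FDR 0.0162) and Rps7 (-0.27, FDR 0.0456) lower.

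These calls were not firm. Without day 7 injured replicate 2 none of the 8 was called, and without day 1 injured replicate 3, which enters the estimate of the spread, 13 members were. Without naïve replicate 1 there were 4 calls, and 5 without naïve replicate 3 or naïve replicate 4. How many of all genes were called in those fits is not given, so that these counts have no share beside them. With counts of protein-coding transcripts only, 2 members were higher and 6 lower, where 2932 and 2207 of all 15634 genes were. The median was -0.02 there, so that the direction of the members as a group at day 7 was not kept in that fit. It also tested fewer genes, and the cause of the change was not tested. In TPM the median deviation of the day 7 injured libraries was -0.43, -0.07 and -0.05, below that of the naïve mean, whereas relative to the TPM of other coding genes the members held 7.49%, 8.54% and 7.68% against 6.66% to 8.02% in naïve libraries. In counts that share turned, with 2.08%, 2.24% and 1.88% of the counts of other coding genes against 2.16% to 2.54%, so that replicates 1 and 3 lay below every naïve library. Of all counts the members took 1.56%, 1.66% and 1.495%, against 1.62% to 2.003%.

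**Figure D2:**
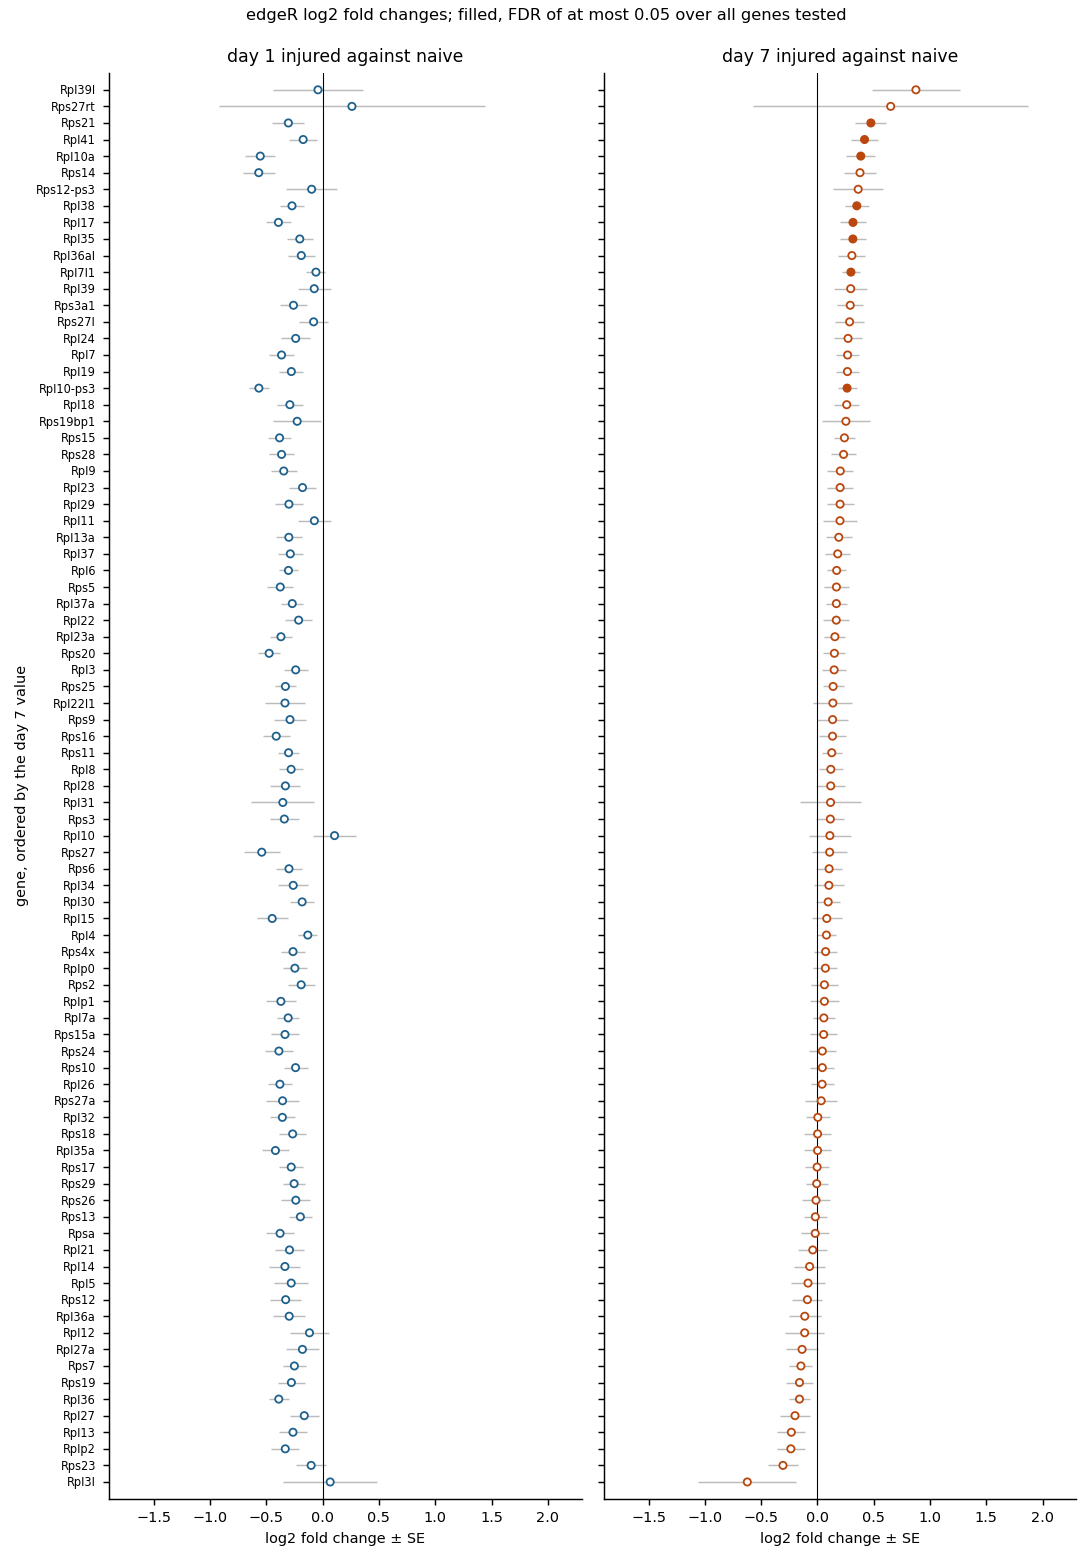
Each row is a reported ribosomal protein gene of the 87 tested, ordered by its day 7 value, with its log2 fold change ± SE on the horizontal axes for day 1 injured (left) and day 7 injured (right) against naïve, and filled points for an FDR of at most 0.05. Over all 87 tested, in TMM-scaled counts, 3 members were above 0 at day 1, with none called. At day 7, 20 were below 0, and 8 of those above were called. In TPM the medians have the opposite signs.

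Against the contralateral knees of day 7, Rpl10a was called higher and Rplp2 lower, where 12.5% of all genes were higher and 6.16% lower. Both changed at least 1.5-fold. Rplp2, a stalk protein, was at 232, 214 and 158 CPM in the injured libraries, and at 487, 243 and 237 CPM in the contralateral ones, where replicate 1 is the library that stood apart. Its log2 fold change was -0.68 ± 0.22 with an edgeR FDR of 0.0386, and without that library it was -0.23 with an FDR of 0.346. Rpl10a was at 63.7, 147 and 144 CPM in the contralateral libraries, again with replicate 1 apart. Its log2 fold change was 0.70 ± 0.23 with an FDR of 0.0433, and without that library it was 0.42 with an FDR of 0.0898. With the counts of pseudogenes matched by sequence added to Rpl10a, the value was 0.27 with an FDR of 0.142. Neither call held without day 7 contralateral replicate 1, nor without day 7 injured replicate 2 or replicate 3, and that of Rpl10a was also lost without naïve replicate 1 or 2, day 1 contralateral replicate 1 or day 1 injured replicate 1, with values of 0.69 to 0.70. Without day 7 contralateral replicate 2 or replicate 3, which gives replicate 1 more weight, 5 members were lower. The number of all genes called lower in those fits is not given, and the 6.16% is from the fit of all libraries. The median over the members was 0.04, and it turned to -0.0081 without day 7 injured replicate 2.

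**Figure D3:**
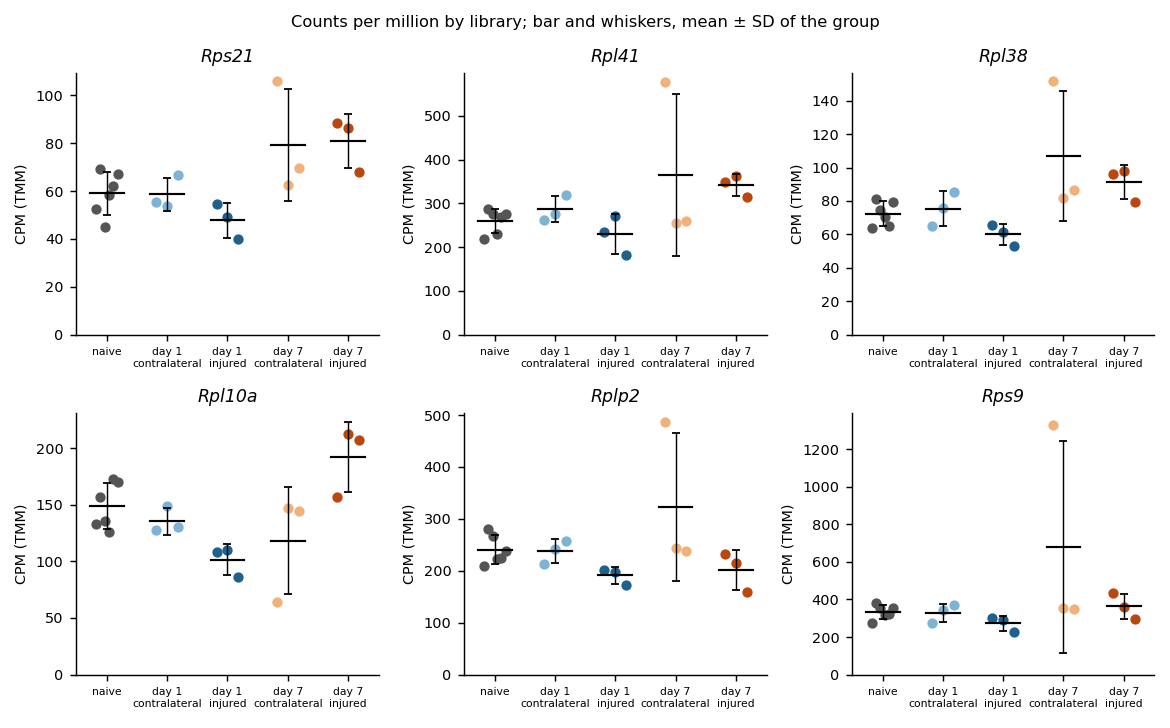
CPM (TMM-scaled, vertical axes from 0) of Rps21, Rpl41, Rpl38, Rpl10a, Rplp2 and Rps9 in each library by group, with bars and whiskers for the mean ± SD of 6 naïve or 3 other libraries. For Rps9 the point at 1332 CPM is day 7 contralateral replicate 1, which also holds the highest Rplp2 (487 CPM) and the lowest Rpl10a (63.7 CPM).

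The contralateral knees themselves were compared with naïve mice. At day 1 the median over the members was -0.01 and edgeR called no gene (0%), and DESeq2 1 higher and 1 lower, with 1 member (1.15%, against 2.62% of all genes) at an unadjusted p under 0.05 and no member called by DESeq2 or limma-voom. At day 7 the median was 0.05 and edgeR again called no gene (0% of 21262), and DESeq2 23 higher and 3 lower, with 19 members (21.8%, against 15.1% of all genes) at an unadjusted p under 0.05 and none called by DESeq2 or limma-voom. Without replicate 1 that median was 0.07. The largest value of a member at day 7 was that of Rps9, 1.02, which rests on replicate 1.

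The injury effect at day 7 minus that at day 1, each against its own contralateral knees, had a median of 0.29 over the members and -0.03 over all genes, with 66 of 87 members above 0. Without day 1 injured replicate 3 the members' median was 0.18. None was called by edgeR, where 4.01% of all genes were and 3.77% also changed 1.5-fold. The lowest FDR was 0.0620, for Rpl17, and 16 members (18.4%) had an unadjusted p under 0.05, near the 16.3% of all genes. DESeq2 called Rpl10a and Rpl17 higher (2.3% of members, against 5.13% of all genes), and limma-voom Rpl17. A test of any difference among the 5 groups called 10 of 87 members, where 18.6% of all genes were called. Among them were the 40S protein genes Rps14, Rps15, Rps20, Rps21 and Rps25 and the 60S protein genes Rpl7, Rpl10a, Rpl17 and Rpl38. Without day 1 injured replicate 3 this test called 3, and 5 without day 7 injured replicate 2. The calls over all genes in those fits are not given, so that these counts have no share to be set against. Without day 7 contralateral replicate 1, 2 or 3 it called 26, 21 and 23, where it called 4661 of 21808, 4426 of 21814 and 4446 of 21786 genes. In each of these 3 fits the members' share was above that of all genes, unlike in the fit of 18 libraries. DESeq2's test of the same question called 31 members (35.6%), where it called 26.2% of all genes.

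Members with special roles are given one by one. The stalk genes Rplp0, Rplp1 and Rplp2 had log2 fold changes of -0.25, -0.37 and -0.33 at day 1 and of 0.07, 0.06 and -0.24 at day 7 against naïve, with no FDR at or under 0.05. Rpl5 and Rpl11, which bind 5S ribosomal RNA and can restrain Mdm2, the inhibitor of p53, were at -0.28 and -0.07 at day 1 and at -0.08 and 0.20 at day 7, not called. Rps27a, which is made as a fusion with ubiquitin, was at 164 to 239 CPM in the day 1 injured and at 227 to 305 CPM in the naïve libraries, a log2 fold change of -0.36 ± 0.15 with an edgeR FDR of 0.987. At day 7 its injured libraries were at 319, 291 and 212 CPM, from below to above the naïve range.

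Of the paralogs, Rpl3l, the muscle form of Rpl3, ran from 9.70 to 44.3 CPM over the 18 libraries and was highest in day 1 injured replicate 3, the library with the highest sum of 14 muscle markers (16330 CPM, others at most 13689). In day 7 injured libraries it was at 19.3, 11.3 and 18.2 CPM, with a log2 fold change of -0.62 ± 0.43 against naïve. Rpl3 itself was at 511, 543 and 443 CPM at day 7 and 374 to 498 CPM in naïve libraries. Rpl39l, the paralog of Rpl39 known from testis, was under 2 CPM in every library, with the largest fitted rise of any member at day 7 (0.87 ± 0.39) and an FDR of 0.103. Rpl22l1 and Rpl22, which regulate each other in other cells, were at 24.1 to 40.3 CPM and 68.8 to 94.3 CPM in the day 7 injured libraries and were not called in any comparison. Rps27l, a p53 target, was at 31.1, 38.7 and 34.5 CPM at day 7 and 21.6 to 32.3 CPM in naïve libraries, and it was not called. Rps6, the substrate of the S6 kinases, was at 297, 262 and 235 CPM at day 1 and 341, 373 and 321 CPM at day 7 in injured knees, and 265 to 394 CPM in naïve mice. Rps3, which also has a repair role, was at 326, 334 and 238 CPM at day 1 in injured knees and 307 to 418 CPM in naïve mice.

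How reads were shared out bears on single members. Of 13287 pseudogenes searched, 1125 matched 83 of the members by sequence. In 20 families the pseudogenes held over 10% of the estimated counts and in 7 over 50%. Rpl5 had 95.2% of its family's counts in pseudogenes, led by Gm15500 at chr7:114705217-114706235, and Rpl12 had 94.1%, led by Gm10275 at chr10:29698746-29699380. Rps23 followed with 74.5%, Rpl27a with 69.7%, Rpl31 with 60.8%, Rpl28 with 59.6% and Rpl27 with 51.3%. The leading pseudogene was identical to the member over the aligned bases in 14 of the 20 families and at least 99% identical in 18. Rpl5 and Gm15500 had 1018 of 1018 aligned bases in common, and Rpl12 and Gm10275 634 of 634, so that reads from within them name neither copy. The first 30 coding bases, the same in member and pseudogene, are shown with the start codon in capitals, since reads from them could go to either.
Rpl5 and Gm15500: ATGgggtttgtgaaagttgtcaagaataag
Rpl12 and Gm10275: ATGccgcccaagttcgaccccaacgaggtc
Rps23 and Rps23-ps1: ATGggcaagtgtcgtggtctccgaactgcc
Rpl10 and Rpl10-ps3: ATGggccgccgccccgcccggtgttaccgg
For Rpl10 and Rpl10-ps3 all 740 aligned bases were identical, which makes the values of both uncertain. The TPM of Rpl5 (median 10.2) and Rpl12 (7.74), genes of subunit proteins, was low beside these shares, and a link between them was not tested. Adding the pseudogenes by sequence moved the members' median at day 1 and at day 7 by less than 0.117, the SD of the naïve libraries' median deviations. At day 7 that bound is about as large as the median itself (0.12).

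**Figure D4:**
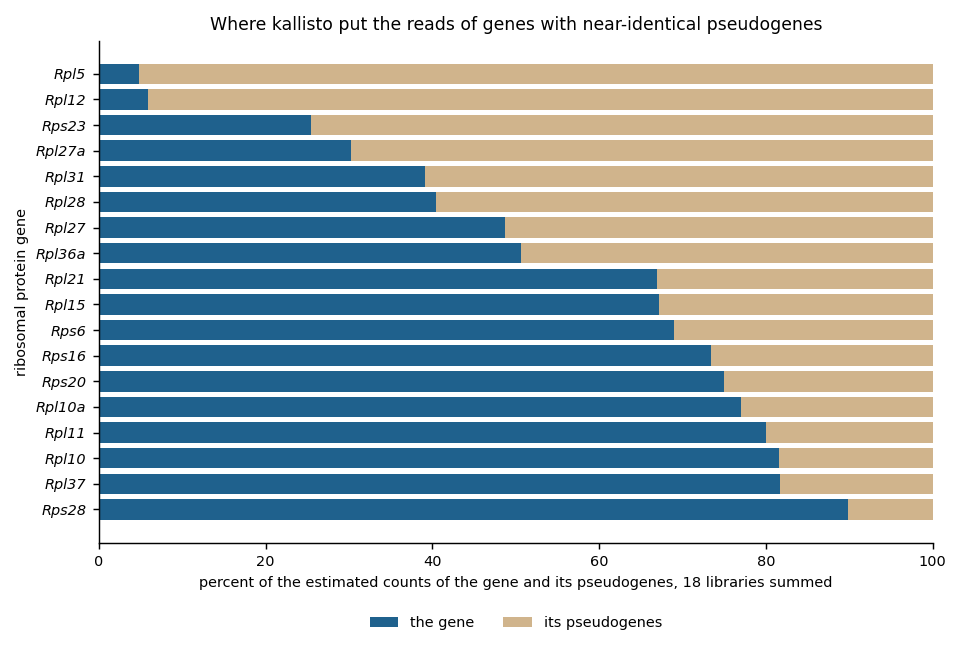
For ribosomal protein genes with over 10% of family counts in pseudogenes and a median of over 100 counts themselves, bars give the percent of the estimated counts of gene plus pseudogenes (18 libraries summed) assigned to the gene and to its pseudogenes. Rpl5 and Rpl12 have 95.2% and 94.1% in pseudogenes.

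Transcripts not annotated as protein-coding took 9.55% to 12.7% of the members' counts, highest in day 7 contralateral replicate 1. In 8 members they took over 50%, led by Rps16, of whose counts 84.4% were in retained-intron transcripts, followed by Rpl12 at 79.0%, Rpsa at 72.4% and Rps20 at 69.7%. In genes other than the members that share was 7.04% to 8.80% in naïve libraries and at most 5.95% in the day 7 injured ones, whereas the members' summed share at day 7 (9.58%, 10.3% and 9.90%) stayed near the naïve values of 9.55% to 10.4%. Single members differed from this sum. Rps26 was at 40.2%, 40.3% and 36.0% in day 7 injured libraries, against 4.64% to 24.2% in naïve ones. Rpl5 went the other way, at 35.9%, 27.7% and 35.2% against 34.3% to 51.0%, with overlap.

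Other genes of the translation machinery were given from lists of known function. In each list of this paragraph the share of genes that rose at day 7 was below the 18.7% of all genes, and the share that fell below the 11% of all genes. Of the ribosome components outside the symbol rule that are given here, Fau, a 40S protein made as a fusion with a ubiquitin-like protein, had a log2 fold change of -0.30 at day 1 and 0.05 at day 7 against naïve, and Rack1, a scaffold protein on the 40S subunit, one of -0.30 and 0.12, neither called in edgeR at either day. The 8 elongation factor genes had medians of -0.14 and 0.14 with none called, and Eef1a1, the most abundant, was at 0.32 at day 7 with an FDR of 0.0555. Of 29 initiation factor genes 3 rose at day 7, Eif4g2 (0.38), Eif1ax (0.32) and Eif3e (0.28), and the medians were -0.09 and 0.12. Of 69 ribosome biogenesis genes 6 rose and 1 fell at day 7, with medians of -0.05 and 0.06. Ltv1, an export factor of the 40S subunit, rose by 0.44, Wdr75 by 0.42 and Polr1c, a subunit of RNA polymerases I and III, by 0.37, and Taf1d, a factor of RNA polymerase I, fell by 0.60 on the log2 scale. Of 27 genes that control ribosome production and translation 4 rose and 1 fell, among them Eif2ak3, the kinase PERK (0.48), Akt1s1, the mTORC1 inhibitor PRAS40 (0.47), Rheb, the mTORC1 activator (0.35), and Rps6ka1, the most abundant, which fell by 0.34. The 78 mitochondrial ribosomal protein genes had medians of -0.08 and 0.08, with 3 that rose at day 7, Mrps21 (0.35), Mrpl48 (0.29) and Mrpl10 (0.26). As a wider set, the 673 tested coding genes with transcripts under 1000 bases had medians of -0.09 and -0.03. The medians for the members with a pyrimidine run near the start were -0.30 at day 1 and 0.10 at day 7 over 34 genes, and those for the members without one -0.25 and 0.17 over 31.

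Some markers of blood-forming marrow were called lower at day 7, where 11% of all genes fell. The 14 erythroid markers had a median of -0.25 at day 1, with 13 of 14 below 0 and none called, and of -0.59 at day 7, with 11 lower, among them Alas2, the first enzyme of heme synthesis in red cells (-0.73), Epb42 (-0.67) and Slc4a1 (-0.66). Their most abundant gene, Hbb-bs, was at -0.43 at day 1 and -0.59 at day 7, not called. Their summed level was 20277 CPM in day 1 injured replicate 3, 25701 and 35351 CPM in replicates 1 and 2, and between 32115 and 42651 CPM in naïve libraries. The 15 neutrophil and marrow myeloid markers had medians of -0.29 and -0.36, with 15 of 15 below 0 at each day and 3 lower at day 7, S100a8 (-0.67), S100a9 (-0.63) and Mmp8 (-0.47). The 17 proliferation genes had medians of -0.17 and -0.25, with all below 0 at each day and 7 lower at day 7, among them Mki67 (-0.46), Birc5 (-0.37), Mcm2 (-0.36) and Mcm5 (-0.33). At day 7 the members' median was above the naïve mean in TMM-scaled counts, though not their share of all counts, and the 14 fibroblast and synovial markers had a median of 1.29, with 11 higher (18.7% of all genes rose), among them Postn (4.29), Col3a1 (3.65), Lum (2.86) and Dpt (2.35). Of 10 endothelial markers 7 were higher and 1 lower at day 7, with a median of 0.58. The 10 adipocyte markers had a median of -1.12, all below 0 and 6 lower, and the 14 muscle markers one of -0.76, all below 0 and 1 lower. The numbers higher and lower were 4 and 1 of 12 macrophage, 3 and 0 of 10 osteoclast, 5 and 3 of 19 chondrocyte, 2 and 2 of 12 osteoblast and osteocyte and 2 and 1 of 14 B cell markers. Between the day 1 injured and day 1 contralateral libraries the erythroid markers had a median of -0.36 and the proliferation genes one of -0.22. The fibroblast and synovial markers had one of 0.43, adipocyte 0.43, osteoblast and osteocyte 0.41 and chondrocyte 0.28, and no marker was called there. The part of these cells in the members' values was not tested.

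**Figure D5:**
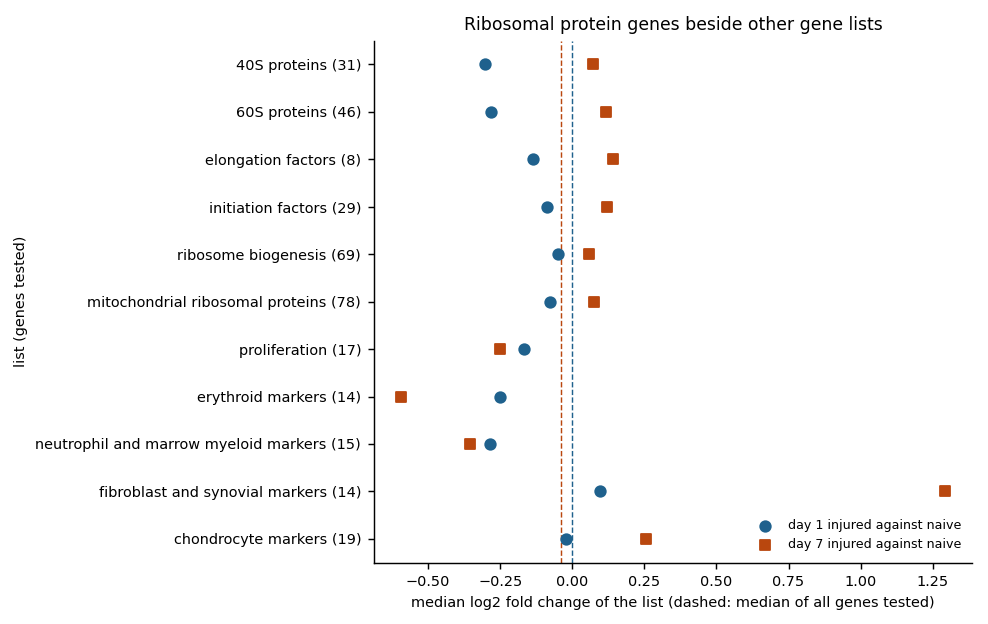
The horizontal axis gives the median log2 fold change of each list (rows, with the number of genes tested) for day 1 injured (circles) and day 7 injured (squares) against naïve in TMM-scaled counts, with dashed lines for the medians of all genes tested. The 40S and 60S proteins lie at -0.30 and -0.28 at day 1 and at 0.07 and 0.12 at day 7, whereas in TPM the median of all members has the opposite signs, and the erythroid markers lie below 0 at both days.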

How the data were processed

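After trimming with Trimmomatic, the authors quantified the reads against mouse transcripts (GRCm38) with kallisto, and they deposited estimated counts and TPM per transcript for 18 libraries of ribosome-depleted total RNA. The labels also name DESeq2, and the study tested with limma-voom and a modelled correlation within mouse pools, which the labels do not allow here. All libraries, naïve ones that share mice included, entered as separate samples, so that errors may be too small. Of 137436 transcripts, 135107 (98.3%) were placed in a gene by GENCODE's annotation for GRCm38, and the unmatched ones held 0.667% to 3.90% of a library's counts. Rounded gene sums of the deposited estimated counts were made for 49184 genes, and the authors' TPM values were summed alike and used for levels. Groups came from the labels, and no library was left out. The study removed 1 ACL library that it does not name.

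All genes that passed filterByExpr were tested with edgeR 4.0.16 (R 4.3.3), TMM normalization and the quasi-likelihood test, with a mean per group, and with Benjamini-Hochberg adjustment. Comparisons without the day 7 contralateral group used 15 libraries (21129 genes), and others all 18 (21262 genes). Calls were made at an FDR up to 0.05. SEs were derived from the fold change and its F statistic. CPM were scaled over 18 libraries, with 0.5 added for logs, and 0.1 added for log2 TPM. DESeq2 1.42.0, limma 3.58.1, other filters, scalings and transcript choices, and fits without each library were alternatives, and the script was tested on simulated data. Pseudogenes were matched by BLAST 2.17.0+ at an identity of at least 90% over at least 50% of the pseudogene. That alternative was added after the data were seen. No pair of libraries was alike within counting noise, the lowest chi-square being 15.9 per gene. The members and lists were chosen with earlier results of these data known. Members are named by rule: those called with 1.5-fold in any comparison, up to 10 of largest rise and fall at day 7, the 5 highest and lowest in TPM, those with special roles, and of each other list up to 4 called genes and the most abundant. Rps9, Rps26, Rps14, Rps20, Rps23, Rpl13, Rpl36, Rps7 and Rps16 and those named in counts were added after their values were seen. Some genes that these rules name are not reported here.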

Additional observations from a re-analysis of the deposited data

Results flagged for a closer look

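Rpl13, a 60S protein gene, was at 221.9 CPM in naïve replicate 1, whereas the other 5 naïve libraries were between 277 and 315 CPM, a gap that is wide for 6 libraries. Chance alone marks about 1 in 20 groups in this way, and 87 genes were looked at. The members' median deviation from the naïve mean was -0.2897 (mean of the 3 libraries) in day 1 injured and 0.09229 in day 7 injured cartilage, with every library of the former below and every library of the latter above 0 in TMM-scaled counts, and with opposite signs in TPM. That difference was not tested as such, and the injury effect at day 7 minus that at day 1 called none of the 87 members in edgeR. Pseudogenes of the members were not counted among the 87 members. They held a mean of 10.67% of the family counts in the 3 day 1 contralateral libraries. Each of these was above the 6 naïve libraries, which ranged from 8.15% to 10.2%. Single libraries of the other groups were above the naïve ones as well, at 10.6% and 10.3% in day 1 injured replicates 1 and 2, 10.9% in day 7 contralateral replicate 1 and 10.4% in day 7 injured replicate 2.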

How the results depend on the processing

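No paired analysis was possible because the labels do not say which knees came from the same mice, and the numbers of the replicates only name libraries. Of the members called higher at day 7 against naïve (8), 0 were left at an FDR of 0.01 and 0 at 1.5-fold, 5 without a filter on low counts, 2 with 18 libraries in every fit and 2 with protein-coding transcripts only, which also gave 6 lower and a median of -0.01578. Against naïve at day 1, DESeq2 called 14 lower. Between day 7 injured and contralateral libraries the member called higher was lost (0) at an FDR of 0.01, with transcript length as an offset, with protein-coding transcripts only and with pseudogenes added by name or by sequence, and DESeq2 called 2. The member called lower was lost (0) at an FDR of 0.01 and with limma-voom, and DESeq2 called 3 and protein-coding transcripts 2. For the injury effect at day 7 minus day 1, DESeq2 called 2 higher and limma-voom 1. The test of any difference among groups called 10 members, 1 at an FDR of 0.01 and 31 with DESeq2, which moved the members' share from below to above that of all genes. The causes of these changes, other than the stricter thresholds, were not tested.

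Leaving out 1 library at a time, the number higher at day 7 against naïve ran from 0 (without day 7 injured replicate 2) to 13 (without day 1 injured replicate 3) and the number lower from 0 to 1. Against the day 7 contralateral knees it ran from 0 to 2 higher and from 0 (without day 7 contralateral replicate 1) to 5 lower (without its replicate 2), for the difference between days from 0 to 2 higher, and for any difference from 3 to 26. These are counts of members alone and do not show how the calls over all genes moved. Of 70 recomputed medians 69 moved by less than 0.117, the SD of the median deviations of the naïve libraries. That bound is about as large as the day 7 median against naïve (0.12). It is wider than the medians of day 7 injured against contralateral (0.04) and of the contralateral knees against naïve (-0.01 and 0.05). For these it cannot show that size or direction was kept. The members' share of TPM in day 1 injured libraries was 1.15 times that of naïve ones over all transcripts, and 0.877 times over other protein-coding genes. At day 7 these ratios were 0.881 and 1.09.

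The 3 libraries a group, the pooled mice and the library that stood apart limit the comparisons with the contralateral side at day 7. Libraries were deep enough that counting error is small for all but the lowest tested members, Rps27rt, Rpl39l and Rps19bp1, the last with 62 to 212 estimated counts. For members with identical pseudogenes, depth does not settle which copy was read.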
